A study of Homo sapiens with 6 samples.

Results

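The transcripts examined were those of 10 human genes of the NF-κB family and its feedback loop. They comprised the 5 subunits NFKB1, NFKB2, RELA, RELB and REL, and the 5 feedback genes NFKBIA, NFKBIE, TNFAIP3, BIRC3 and NFKBIZ. The rows were found by matching Ensembl identifiers to these symbols, and all 10 genes were present among the 61496 features of the table. The cells were U251, an established human glioma line, in 2 groups of 3 libraries. Control cells were untreated, and Sev cells were exposed to the volatile anesthetic sevoflurane (Sev) for 2 h. Both groups were grown in medium with 10% fetal bovine serum under 5% CO2 at 37 °C. The labels list concentrations of 1.7%, 3.4% and 5.1% without assigning one to a library. The study's description of its sequencing comparison names 5.1% for the Sev cells. The labels also do not say whether the 3 libraries of a group came from separate cultures, so p-values measure only the spread between these libraries, which may be technical.

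NF-κB is a family of dimeric transcription factors that is held in the cytoplasm by IκB proteins in resting cells. Ligands such as tumor necrosis factor and interleukin 1 act through adaptors and ubiquitin enzymes on the IκB kinase complex, which marks IκB for degradation and frees the dimers to enter the nucleus. Among the genes that the dimers switch on are their own inhibitors, so that the signal is limited in time. In gliomas the pathway is known for its activity in inflammatory and mesenchymal tumor states.

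Library totals were between 38624292 and 46318311 counts. Levels are given as CPM, counts scaled to a common library size by TMM, which adjusts library sizes for differences in composition. TMM factors were 1.03 to 1.08 in control and 0.918 to 0.988 in Sev libraries. The glial and neural markers VIM, NES, GFAP, S100B, SOX2 and CD44 were detected in every library. GFAP, an astrocyte filament, was at 201 to 373 CPM in control and 230 to 321 CPM in Sev cells. VIM, NES and GFAP were not called, S100B (22.2 to 10.3 CPM) and SOX2 (286 to 173 CPM) fell, and CD44 (385 to 755 CPM) rose, at edgeR adjusted p-values of 0.00215, 0.000367 and 0.000174. The summed level of 6 microglia and macrophage markers was 5.08 to 5.58 CPM in control and 12.5 to 14.3 CPM in Sev libraries.

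NF-κB dimers bind a short DNA motif, the κB site, and feedback genes are known to carry such sites near their starts. RefSeq promoter sequences (GRCh38.p14), from 250 bases before to 50 bases after each annotated start, were matched for 8 of the 10 genes, all but RELB and NFKBIE. They were searched on both strands for the 10-base κB consensus, which is 3 guanines, a purine, any base, A or T, 2 pyrimidines and 2 cytosines. At least 1 match was found in 7 of the 8 genes, against 7.09% of the 27305 genes with a promoter sequence and 5.91% of the 35116 promoters. The 2 annotated starts of RELA held no match. The windows below are shown because each holds at least 1 match of a gene whose level is compared, written 5′ to 3′ on the strand of the gene, with the bases of a match in capitals.
NFKBIA, chr14:35404801-35404850, minus strand: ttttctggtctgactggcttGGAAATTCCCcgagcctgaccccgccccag
TNFAIP3, chr6:137867188-137867217, plus strand: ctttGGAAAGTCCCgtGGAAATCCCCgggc
BIRC3, chr11:102317265-102317378, plus strand: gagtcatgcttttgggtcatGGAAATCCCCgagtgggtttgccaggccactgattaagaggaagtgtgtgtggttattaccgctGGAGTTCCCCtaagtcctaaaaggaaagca
NFKBIZ, chr3:101827747-101827796, plus strand: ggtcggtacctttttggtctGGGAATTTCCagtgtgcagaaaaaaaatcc
NFKB1, chr4:102501300-102501329, plus strand: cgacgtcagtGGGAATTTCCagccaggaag
NFKB2, chr10:102394462-102394490, plus strand: aaacgtcatGGGAATTCCCCcctccgggg
REL, chr2:60881518-60881546, plus strand: gtcagccgcGGGAAATTCCCctcccgcca

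The windows of NFKB2 and REL each hold 2 overlapping matches, which make runs of 11 capitals. Counted from the annotated start, the match of NFKBIA began at base -81. TNFAIP3 held matches from -67 and -55, and BIRC3 from -199 and -135. The match of NFKB1 began at -49, and the first of REL at -47. The windows of NFKBIA, BIRC3 and NFKBIZ met no annotated exon, whereas those of TNFAIP3 (30 of 30 bases), NFKB2 (29 of 29), REL (26 of 29) and NFKB1 (21 of 30) did. Further matches that are not printed began at -78 of the same start of NFKB2, at -176 and -21 of another of its starts, and at -239 of a second start of NFKBIZ. A match is a run of letters and does not show that a factor was bound.

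**Figure D1:**
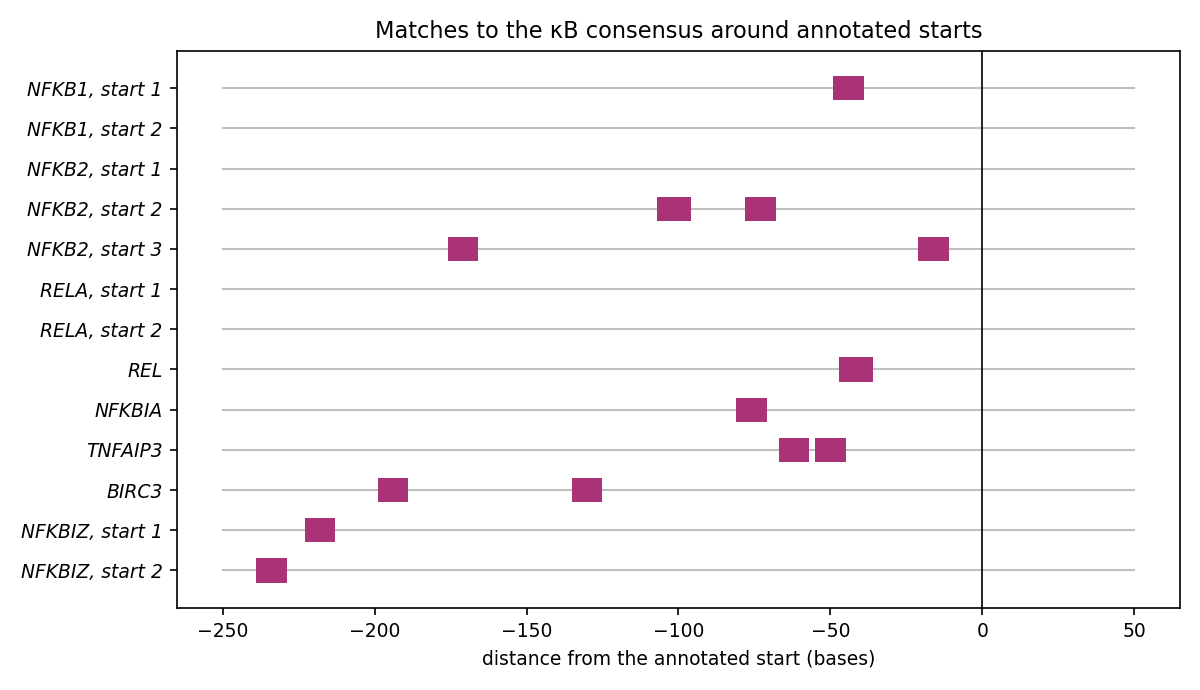
Matches to the κB consensus (boxes) in the promoter sequences of the 8 genes, by distance in bases from each annotated start, with 1 line per start. All matches lie before the start, and the lines of RELA hold none.

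Of the 10 genes, 5 were higher and 2 were lower in Sev cells, at a Benjamini-Hochberg adjusted p under 0.05 over the 27514 features tested by the quasi-likelihood method of edgeR. NFKB1, RELA, NFKBIA, TNFAIP3 and BIRC3 rose, NFKB2 and NFKBIZ fell, and RELB, REL and NFKBIE did not pass. All 10 genes passed the expression filter. Of all tested features 43.7% were called, 22.1% higher and 21.5% lower. Among protein-coding genes 45.9% were called, 25% higher and 21% lower. The median log2 fold change of the 10 genes was 0.44, against -0.0056 over all tested features. In bulk RNA, a change in the share of cells that hold a transcript and a change in its amount per cell cannot be told apart. Scaling by library size only moved the median of all features by -0.14, and 38.3% of all calls were then higher, against 50.7% with TMM.

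NFKBIA encodes IκBα, the inhibitor that retains RELA dimers in the cytoplasm (chr14:35401511-35404749, minus strand, GENCODE 29 on GRCh38). Its level was 7.56, 9.34 and 10.1 CPM in control libraries and 14.9, 21.6 and 16.7 CPM in Sev libraries. Every Sev library was above every control library. The mean rose from 9.01 ± 1.32 to 17.8 ± 3.47 CPM (SD, n = 3), a log2 fold change of 0.98 ± 0.18 (SE) with an edgeR adjusted p of 0.00369. As a fold this was 1.97, with a 95% interval of 1.48 to 2.62.

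TNFAIP3 encodes A20, a ubiquitin-editing enzyme that shuts down signaling upstream of the IκB kinases (chr6:137867188-137883312, plus strand). Control libraries held 8.18, 8.25 and 7.60 CPM, and Sev libraries held 16.2, 23.3 and 14.3 CPM. The groups did not overlap, and Sev replicate 2 was the highest. The mean rose from 8.01 ± 0.357 to 17.9 ± 4.75 CPM (SD, n = 3), by 1.16 ± 0.19 on the log2 scale (SE), with an edgeR adjusted p of 0.00229. TNFAIP3 alone among the 10 genes passed the study's own threshold, a log2 fold change past 1 with an unadjusted p under 0.05, which 11.4% of tested features passed upward and 12.0% downward (9.07% and 7.62% of protein-coding genes). Without Sev replicate 2 its log2 fold change was 0.93, and no gene of the 10 was past that threshold, as in the 3 limma fits of FPKM. Without control replicate 3, Sev replicate 1 or Sev replicate 3, NFKBIA passed as well, at log2 fold changes of 1.07, 1.09 and 1.02. WAKMAR2, a long non-coding RNA on the opposite strand that shares 95 exon bases with TNFAIP3, held 22, 10 and 8 counts in control and 68, 51 and 23 counts in Sev libraries.

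BIRC3 encodes cIAP2, a ubiquitin ligase recruited to tumor necrosis factor receptors (chr11:102317450-102339403, plus strand). It was the least abundant of the 10 genes, with 78, 84 and 81 counts in control and 102, 137 and 123 counts in Sev libraries. Its level was 1.84, 2.12 and 1.67 CPM in control and 2.71, 3.65 and 3.10 CPM in Sev libraries, without overlap. The log2 fold change was 0.75 ± 0.20 (SE), with an edgeR adjusted p of 0.0171. Leaving out control replicate 1 or control replicate 3 ended the call, at edgeR adjusted p-values of 0.0525 and 0.0668, as did limma on log2(FPKM + 1) without a filter (adjusted p = 0.152).

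NFKBIE encodes IκBε, an inhibitor of the same kind as IκBα (chr6:44258166-44265788, minus strand). Its level was 6.81, 7.65 and 8.43 CPM in control and 8.20, 8.60 and 8.51 CPM in Sev libraries, and the groups overlapped. The log2 fold change was 0.14, with a 95% interval of -0.17 to 0.46 and an edgeR adjusted p of 0.412.

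NFKBIZ encodes IκBζ, a nuclear IκB protein that modulates transcription at selected target genes (chr3:101827991-101861022, plus strand). Control libraries held 45.3, 38.1 and 37.7 CPM, and Sev libraries held 34.4, 31.7 and 31.0 CPM. All Sev libraries were below all control libraries. It fell by 0.32 ± 0.10 on the log2 scale (SE), with an edgeR adjusted p of 0.0396. This call was lost without any 1 of the 6 libraries, with edgeR adjusted p-values from 0.0514 to 0.104, and without an expression filter (0.054). It was lost as well with the replicate number as a block.

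**Figure D2:**
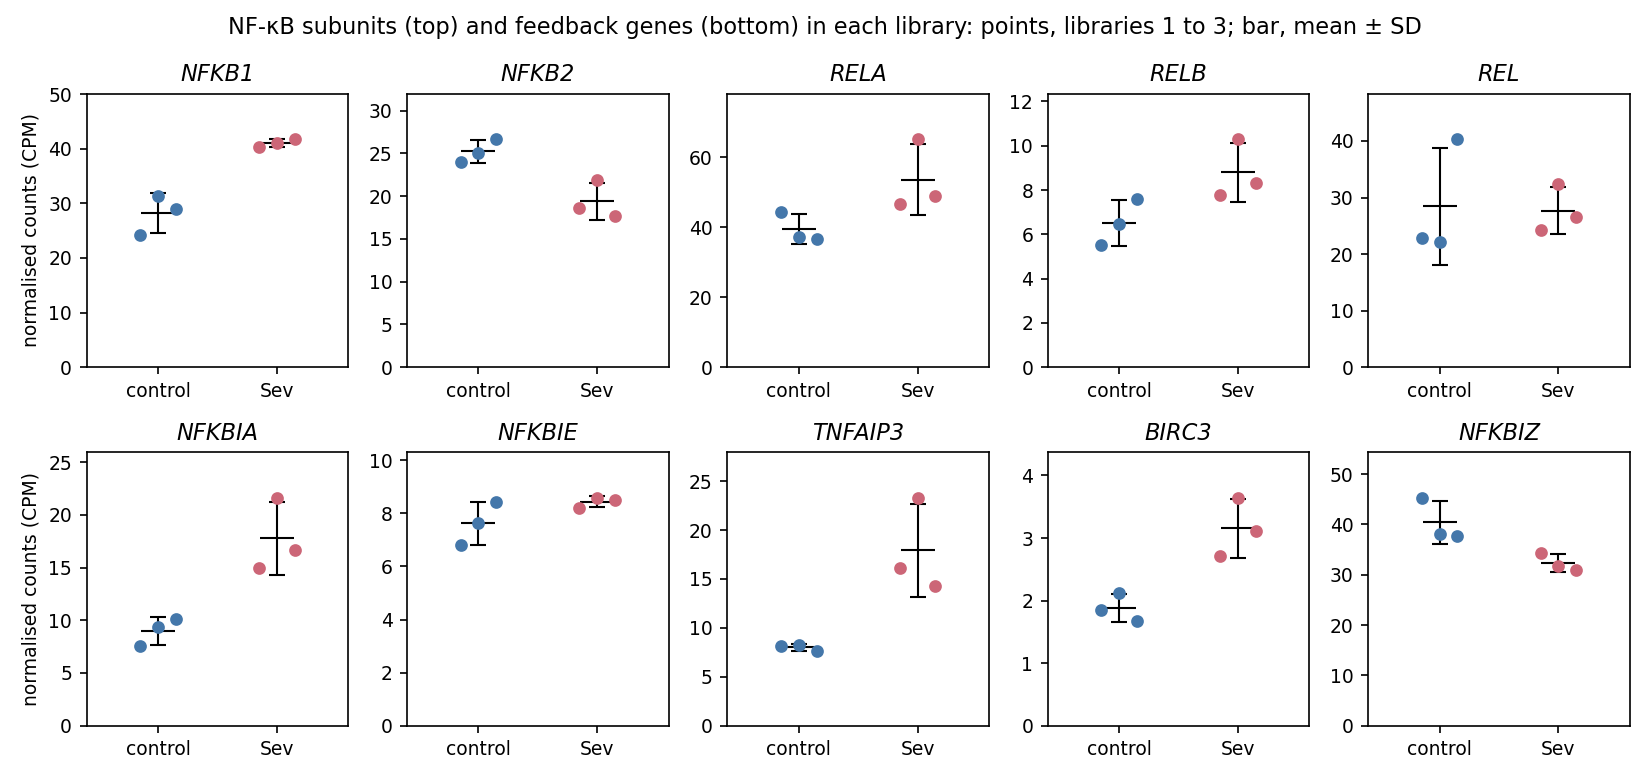
Level of each of the 10 genes in every library, in TMM-scaled CPM, with points for libraries and bars for the mean ± SD of each group (n = 3). NFKB1, RELA, RELB, NFKBIA, TNFAIP3 and BIRC3 show all Sev points above all control points, and NFKB2 and NFKBIZ show all Sev points below. For REL, 1 control point, at 40.3 CPM, lies above the others.

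RELA encodes p65, the subunit with the transactivation domain of the canonical dimer (chr11:65653596-65663094, minus strand). Its level was 44.5, 37.3 and 36.8 CPM in control and 46.7, 65.3 and 49.0 CPM in Sev libraries. The groups did not overlap, control replicate 1 being close to the lowest Sev library. The log2 fold change was 0.44 ± 0.15 (SE), with an edgeR adjusted p of 0.0414. Its call ended when control replicate 2, control replicate 3 or, in turn, Sev replicate 2 was left out, at edgeR adjusted p-values of 0.119, 0.133 and 0.0838. RELA was also not called with library size only (edgeR adjusted p = 0.127), without an expression filter (0.0696) or in the 3 limma fits of FPKM (adjusted p of 0.143 to 0.217). With the replicate number as a block, its call ended too.

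NFKB1 encodes p105, the precursor of the p50 subunit (chr4:102501329-102617302, plus strand). Control libraries held 24.2, 31.4 and 28.9 CPM, and Sev libraries held 40.3, 41.0 and 41.8 CPM. The Sev libraries lay close together and above all control libraries. The log2 fold change was 0.54 ± 0.11 (SE), with an edgeR adjusted p of 0.00622, and the call held without any 1 of the libraries.

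NFKB2 encodes p100, the precursor of p52 in the non-canonical pathway (chr10:102394110-102402529, plus strand). It was at 24.0, 25.1 and 26.7 CPM in control and 18.6, 21.9 and 17.7 CPM in Sev libraries, and the groups did not overlap. It fell by 0.38 ± 0.11 on the log2 scale (SE), with an edgeR adjusted p of 0.0280. The call ended in the fits that lacked control replicate 2, control replicate 3, Sev replicate 1 and Sev replicate 3, with edgeR adjusted p-values from 0.0589 to 0.0958. A fit with the replicate number as a block also ended it. RELB, the partner of p52 (chr19:45001430-45038198, plus strand), was at 5.51, 6.46 and 7.58 CPM in control and 7.78, 10.3 and 8.33 CPM in Sev libraries. Its groups did not overlap, and its log2 fold change of 0.43 ± 0.18 (SE) had an edgeR adjusted p of 0.0798.

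REL encodes c-Rel, a subunit best known from lymphoid cells (chr2:60881521-60931610, plus strand). Its level was 22.9, 22.1 and 40.3 CPM in control and 24.2, 32.4 and 26.5 CPM in Sev libraries. Control replicate 3 was the highest of the 6 libraries, and the groups overlapped. The log2 fold change was -0.039, with a 95% interval of -0.59 to 0.51 and an edgeR adjusted p of 0.910. REL shares 5702 exon bases with ENSG00000267520, a non-coding RNA on the same strand. That feature held 749, 812 and 41 counts in control and 671, 462 and 801 counts in Sev libraries, so it was lowest where REL was highest. REL made up 56.4%, 51.9% and 97.9% of the summed counts in control and 57.6%, 72.5% and 56.7% in Sev libraries. The sum of both features was 40.6, 42.6 and 41.2 CPM in control and 42.1, 44.7 and 46.7 CPM in Sev libraries. Its log2 fold change was 0.10 ± 0.083 (SE), with an edgeR adjusted p of 0.351, in a comparison chosen after the data were seen.

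**Figure D3:**
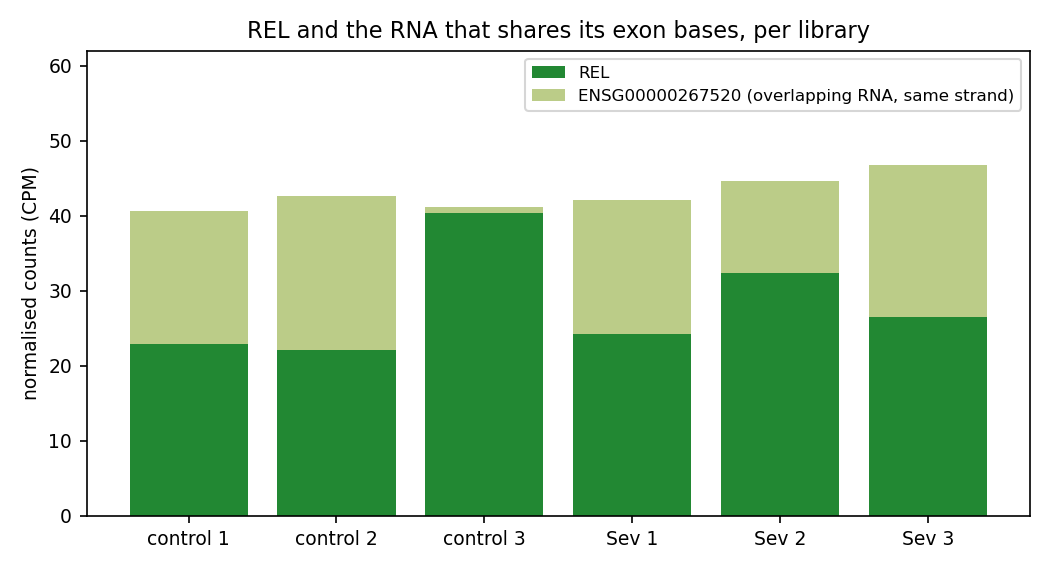
Stacked levels of REL and of the overlapping non-coding RNA ENSG00000267520 in each of the 6 libraries, in TMM-scaled CPM. In control replicate 3 nearly the whole bar is REL, at 40.3 CPM, while the height of the bars stays between 40.6 and 46.7 CPM.

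Across the 10 genes, the groups did not overlap for 6 genes that were higher and 2 that were lower in Sev cells, and 28.3% and 28.2% of all tested features were apart in these directions (31.2% and 26.6% of protein-coding genes). Sev replicate 2 was the highest of the 3 Sev libraries for 8 of the 10 genes. The share of all tested features that were highest in that library was not computed, so this count cannot be read as particular to these genes. The same library had the smallest TMM factor, 0.918, and the lowest mean correlation with its group, 0.982.

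**Figure D4:**
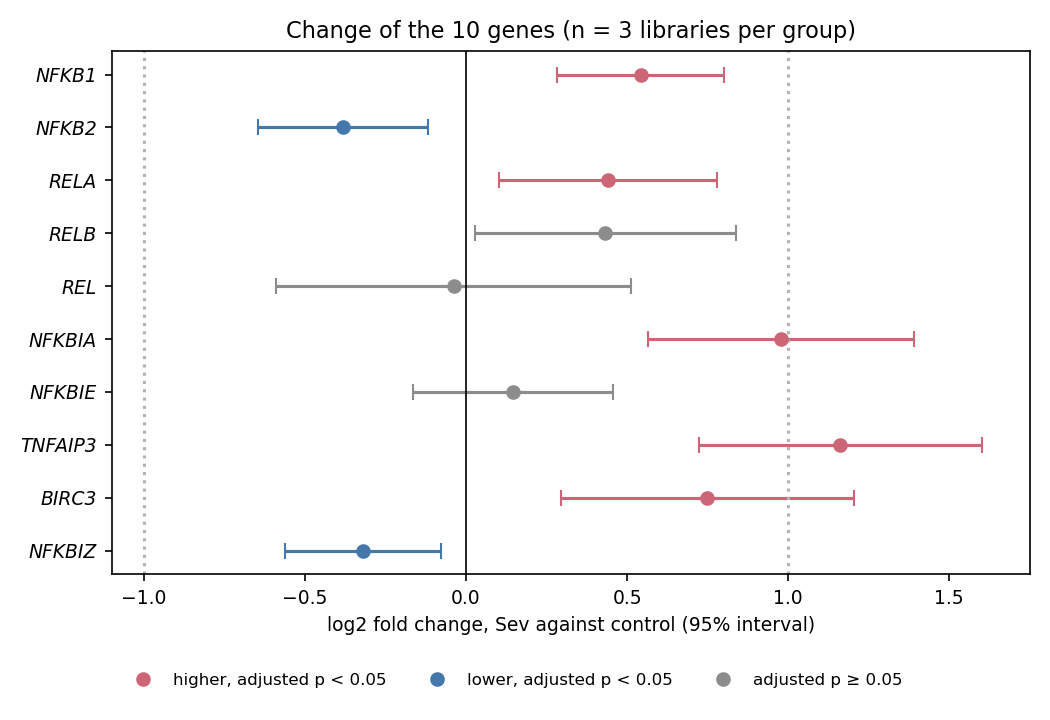
log2 fold change of Sev against control for the 10 genes, with 95% intervals from edgeR (n = 3 libraries per group); dotted lines mark a log2 fold change of 1 in either direction. TNFAIP3, at 1.16, is the only point past a dotted line in this fit of all 6 libraries, and the intervals of REL and NFKBIE include 0.

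Levels of different genes can be compared only per length, for which the deposited FPKM values were used. In control cells the order was RELA (6.15 FPKM), NFKBIZ (5.83), NFKB2 (4.56), NFKB1 (3.76), NFKBIA (3.20), NFKBIE (2.50), REL (1.83), RELB (1.82), TNFAIP3 (1.33) and BIRC3 (0.210). RELA and NFKBIZ overlapped in their libraries, as did each neighbouring pair from NFKB1 to RELB. In Sev cells NFKBIA followed RELA directly, at 5.73 against 7.52 FPKM, and it overlapped both RELA and the next gene, NFKB1. NFKB1 stood at 4.97, NFKBIZ at 4.21, NFKB2 at 3.16 and TNFAIP3 at 2.71 FPKM, and TNFAIP3 overlapped both NFKB2 and the next gene, NFKBIE. The order and the overlaps depend on the gene length used. In CPM per kilobase of the principal annotated transcript, Sev libraries held RELA at 19.9 ± 3.75 and NFKBIA at 11.4 ± 2.23 (SD, n = 3). Control libraries held RELA at 14.6 ± 1.59 and NFKBIZ at 10.3 ± 1.09. On that scale RELB ranked above TNFAIP3 in Sev cells and above REL in control cells.

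The makeup of the subunit pool and the amount of inhibitor transcript per RELA transcript were computed from the same values. RELA was 39.5%, 32.7% and 29.8% of the summed FPKM of the 5 subunits in control and 36.7%, 41.3% and 37.2% in Sev libraries. The groups overlapped, and the difference of 4.43 percentage points had p = 0.3 in a two-sided exact permutation test. The difference was 7.19 without control replicate 1 and 2.35 without control replicate 3. REL, which shares exon bases with ENSG00000267520, was 8.43%, 8.03% and 13.6% of the same sum in control and 7.90%, 8.50% and 8.37% in Sev libraries. Its part in the RELA share was not tested. The share of NFKB2 was 25.2% ± 0.372 in control and 16.2% ± 0.728 in Sev libraries (SD, n = 3). The ratio of NFKBIA to RELA in FPKM was 0.387, 0.574 and 0.633 in control and 0.735, 0.762 and 0.786 in Sev libraries. All Sev ratios were above all control ratios, with p = 0.1 in the two-sided exact permutation test, which is the smallest p that 3 against 3 allows.

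Among 13405 protein-coding genes with a mean of at least 1 CPM, ZNF697, SH2B3 and TMEM64 had the levels most like those of NFKBIA over the 6 libraries (Pearson's r of 0.998, 0.998 and 0.997 on log2 CPM). These points include the difference between the groups, and 558 genes had an r over 0.95. Of the other members, RELB (0.949), TNFAIP3 (0.945), BIRC3 (0.933) and NFKB1 (0.932) were nearest to NFKBIA, and NFKBIZ ran opposite (-0.935).

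The other genes of the pathway were taken from lists by role, chosen with earlier results of these data known. Of 72 listed genes 62 were tested, of which 22 were higher and 10 were lower in Sev cells, with a median log2 fold change of 0.23. These counts, and those by role that follow, stand beside 22.1% higher and 21.5% lower over all tested features. Scaled by library size only, 14 of the pathway genes were higher and 14 were lower. Of 9 listed ligands, 5 were tested and only TNFSF13B, which encodes the B-cell factor BAFF, passed, falling by 1.35 ± 0.41 on the log2 scale (SE) with an edgeR adjusted p of 0.0307. This call was lost in 4 of the 6 fits without 1 library, which lacked control replicate 1, control replicate 3, Sev replicate 2 and Sev replicate 3 (edgeR adjusted p of 0.0636 to 0.124). It was also lost in the DESeq2 test (adjusted p = 0.0825), in limma on log2(FPKM + 1) without a filter (adjusted p = 0.0594) and with the replicate number as a block. TNF, which encodes tumor necrosis factor, held 0 counts in 5 libraries and 4 counts in Sev replicate 2.

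Of 12 receptors, 9 were tested and 3 rose. TLR4, the receptor for bacterial lipopolysaccharide, rose from 45.0 ± 2.68 to 97.1 ± 14.3 CPM (SD, n = 3; edgeR adjusted p = 0.000424). TNFRSF12A, the receptor for the ligand TWEAK, rose from 75.3 ± 16.8 to 173 ± 40.8 CPM (edgeR adjusted p = 0.00309). TNFRSF11A, which encodes RANK, held 2, 3 and 0 counts in control and 54, 41 and 78 counts in Sev libraries (edgeR adjusted p = 0.000575). Of the 6 microglia and macrophage markers, 3 were tested and all rose, CD14 among them, while AIF1 and TYROBP held 0 counts in every library and PTPRC at most 12. The part of this marker group in the receptor and target results was not tested.

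Adaptors moved in both directions, with 9 of 21 tested higher and 4 lower. RIPK2, a kinase adaptor of NOD receptors, rose by 1.09 ± 0.12 on the log2 scale (SE; edgeR adjusted p = 0.000384). IRAK2, an adaptor of interleukin 1 and Toll-like receptors, rose by 0.98, and RIPK1, of the tumor necrosis factor receptor complex, by 0.55. TRAF5, which links receptors of that family to kinases, fell from 11.6 ± 0.569 to 5.22 ± 0.410 CPM (edgeR adjusted p = 0.000496). TRADD, the first adaptor of tumor necrosis factor receptor 1, fell by 0.58 on the log2 scale. TAB1, a partner of the kinase TAK1, fell by 0.38 on the log2 scale. Its call held without Sev replicate 2 and was lost in the fits that lacked any other library (edgeR adjusted p of 0.0545 to 0.0874).

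All 7 kinases were tested, 2 rising and 2 falling. IKBKB, which encodes the catalytic subunit IKKβ of the canonical pathway, held 60.2, 58.8 and 61.8 CPM in control and 32.0, 34.2 and 30.5 CPM in Sev libraries, a log2 fold change of -0.90 ± 0.083 (SE) with an edgeR adjusted p of 0.00024. CHUK, which encodes IKKα, was at 54.0 and 54.8 CPM (edgeR adjusted p = 0.853), and IKBKG, the regulatory subunit, was at 25.5 and 24.6 CPM (edgeR adjusted p = 0.740). IKBKE fell by 0.74 on the log2 scale, while the related kinase TBK1 rose by 0.57. MAP3K8, a kinase that p105 binds, rose by 0.82, and was not called by limma on log2(FPKM + 0.1) or on log2(FPKM + 1) without a filter (adjusted p of 0.0543 and 0.104). MAP3K14, the kinase of the non-canonical pathway, was at 67.9 and 63.7 CPM (edgeR adjusted p = 0.686).

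The 3 other IκB family genes differed among themselves. NFKBIB, which encodes IκBβ, rose from 11.8 ± 1.29 to 22.1 ± 2.05 CPM (SD, n = 3; log2 fold change 0.90 ± 0.13, edgeR adjusted p = 0.00125). BCL3, a nuclear IκB protein, fell from 19.1 ± 2.74 to 5.12 ± 1.56 CPM (log2 fold change -1.90 ± 0.23, edgeR adjusted p = 0.000699). NFKBID, another nuclear member, was at 4.73, 4.21 and 5.27 CPM in control and 2.26, 4.42 and 2.30 CPM in Sev libraries, with an edgeR adjusted p of 0.0885. Without Sev replicate 2 that p was 0.00527, and with library size only it was 0.0386. NFKBID was also called lower by limma on log2(FPKM + 1) and on log2(FPKM + 0.1) (adjusted p of 0.0378 and 0.0439).

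Of 17 ubiquitin enzymes and partners tested, 7 rose and 2 fell. SKP1, a subunit of the ligase that degrades IκBα, rose by 0.58 on the log2 scale, whereas BTRC, the subunit that recognises IκBα, fell by 0.43. RBCK1, of the linear ubiquitin ligase complex, fell by 0.88. RNF11 and TAX1BP1, both partners of A20, rose by 0.44 and 0.35, and TAX1BP1 was not called with library size only (edgeR adjusted p = 0.0665) or in the 3 limma fits of FPKM (adjusted p of 0.0728 to 0.093).

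Of the 32 genes listed as known NF-κB targets outside the 10 genes, 24 were tested. In Sev cells 12 of these were higher and 0 were lower, by edgeR's adjusted p and also 0 lower at an unadjusted p under 0.05. Limma on log2(FPKM + 1) without a filter called 7 higher. DESeq2, the fit without an expression filter and the fits without control replicate 2, Sev replicate 1, Sev replicate 2 or Sev replicate 3 each called 1 target lower. The share called higher over all tested features was 22.1%. Because the list was chosen with earlier results of these data known, its counts are no test against the shares over all features. Past the study's threshold upward were 10 of the 24, against 11.4% of all tested features, and the median log2 fold change was 0.52. CXCL8, the neutrophil chemokine interleukin 8, rose from 2.39 ± 0.788 to 29.5 ± 3.15 CPM (SD, n = 3), a log2 fold change of 3.63 ± 0.23 (SE; edgeR adjusted p = 7.6e-05). CXCL2, a chemokine of the same family, rose from 4.03 ± 0.395 to 13.3 ± 0.763 CPM (edgeR adjusted p = 0.000146). GADD45B, a stress-induced regulator of survival, rose from 26.8 ± 2.45 to 97.5 ± 15.7 CPM (edgeR adjusted p = 0.000112). The 12 genes not called included CFLAR and XIAP, inhibitors of apoptosis that, like TNF, were named after their values were seen, at log2 fold changes of -0.0050 and -0.027. VCAM1, an adhesion molecule named after its values were seen, held 18, 5 and 21 counts in control and 0 in every Sev library, and did not pass the expression filter.

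**Figure D5:**
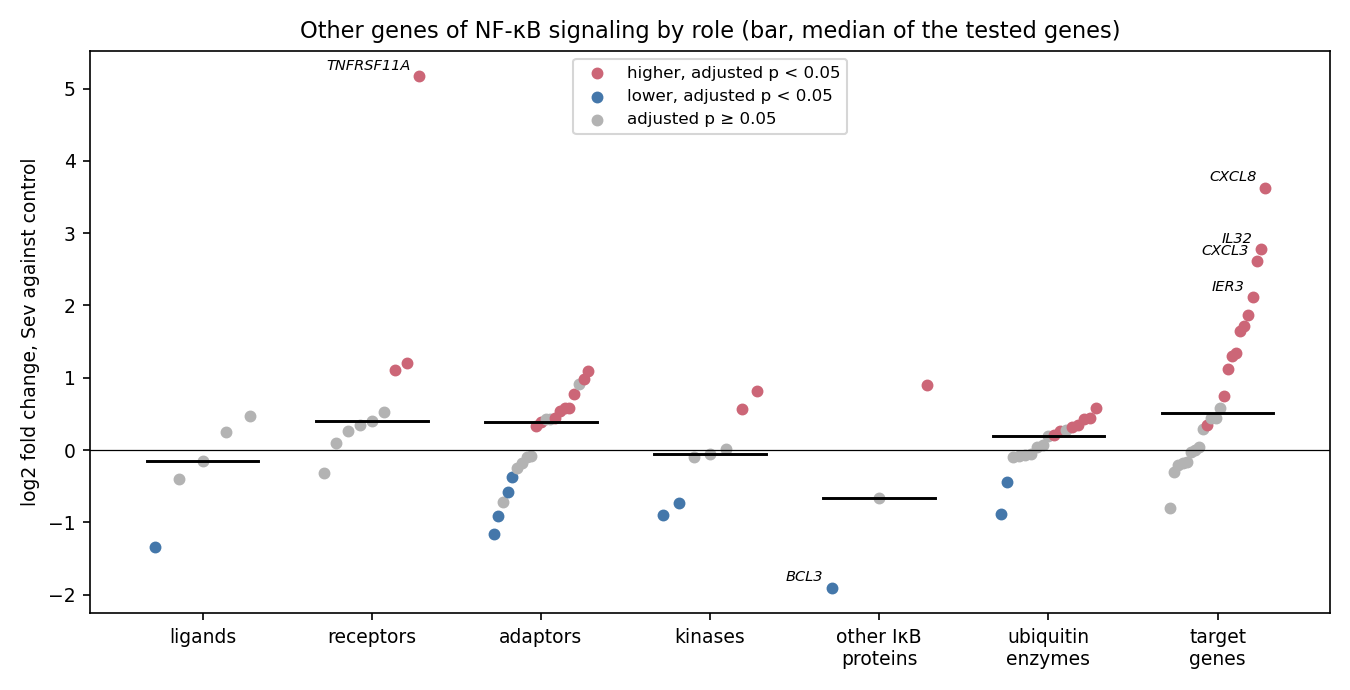
log2 fold change of Sev against control for each tested gene of the role lists and of the target list, with a bar for the median of each list; names mark the largest changes. The targets reach 3.63 at CXCL8 with no called point below 0, and the value of TNFRSF11A rests on at most 3 counts in each control library.

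The κB consensus was present in the promoter sequences of 14 of 25 target genes and of 12 of 60 other pathway genes with a sequence. Among tested targets, 7 of 10 with a match and 4 of 9 without one were higher. Over all tested genes with a promoter sequence, 24.4% of the 1176 with a match were higher and 21.5% lower, against 24.1% and 21.5% of all 13772.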

How the data were processed

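RNA of U251 cells was sequenced in 6 libraries, 3 control and 3 Sev, grouped by their labels. The authors deposited 2 tables of the same features, one of raw counts and one of FPKM. The submitters' processing notes name bcl2fastq 2.19, featureCounts and the build hg18. The study states that strand-specific adapters were used for the libraries. The aligner, the annotation and the strand setting of the counting are not given in the sources used here. The deposited FPKM values behaved as counts divided by gene length and library total, without TMM. The tables hold no coordinates, so positions were joined by identifier through GENCODE 29 (GRCh38), and overlapping genes are uncertain. The 10 genes and all lists were chosen with earlier results of these data known.

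Counts were tested in R 4.3.3 with edgeR 4.0.16 (filterByExpr, TMM, glmQLFit and glmQLFTest), without covariates. A gene was called at a Benjamini-Hochberg adjusted p under 0.05. The SE is the absolute log2 fold change over the square root of F. Genes named from each list were those with the smallest p among called genes, up to 3 per direction, and all kinases and IκB genes. The listed target SOD2 matched no single row. Replicates differed beyond counting noise. Alternatives were DESeq2 1.42.0 and its size factors, library size only, 2 other count filters, a replicate block, each library left out, and limma 3.58.1 on log2(FPKM + 1) or log2(FPKM + 0.1). The tests were run on simulated data first. Permutation tests used scipy 1.17.1.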

Additional observations from a re-analysis of the deposited data

How the results depend on the processing

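Of the 149 alternative values for the 10 genes, 120 kept their direction and their side of the adjusted p limit, 25 lost the call and 4 changed sign, all of REL. The values of REL were 0.0085 with the replicate block, 0.30 without control replicate 3, 0.049 without Sev replicate 1 and 0.10 when summed with the overlapping RNA. Small differences in 3 kinases also changed sign. MAP3K14 was at 0.0071 without control replicate 1 and 0.075 without Sev replicate 3, and IKBKG was at 0.020 without Sev replicate 2. CHUK was at -0.12 with library size only, -0.028 without control replicate 1, and -0.11, -0.12 and -0.11 in the 3 fits of FPKM. Over all fits without 1 library, REL ran from -0.20 to 0.30, MAP3K14 from -0.21 to 0.075, IKBKG from -0.11 to 0.020 and CHUK from -0.028 to 0.070. The cause was not tested. In each of the 3 fits of FPKM, 3 of the genes were called higher and 0 were past the study's threshold, and BIRC3 was under the FPKM filter of 0.5 and so was tested only in the fit without it. Without an expression filter 1 of them was called lower. In the pathway lists 14 genes were higher and 14 lower with library size only, and 14 were higher with log2(FPKM + 0.1) and with log2(FPKM + 1) without a filter, while 7 targets were higher in the last of these. DESeq2 and the fit without a filter each called 1 target lower, VCAM1. Leaving out 1 library gave 3 to 5 of the 10 genes higher, 0 to 1 lower and 0 to 2 past the threshold upward, 16 to 22 pathway genes higher and 7 to 10 lower, and 9 to 12 targets higher and 0 to 1 lower. The difference in the RELA share was then 2.35 to 7.19 percentage points and that in the NFKBIA to RELA ratio 0.157 to 0.280. From TMM-scaled CPM, which is not per length, these differences were 4.30 percentage points and 0.0989. Deviations of libraries with the same replicate number correlated at -0.052, 0.012 and 0.064, within the range of the other pairs, from -0.12 to 0.099. These values cannot show whether control and Sev libraries of the same number were handled as pairs. With the replicate block, 4 of the 10 genes were higher and 0 lower. RELA, NFKB2 and NFKBIZ lost their calls in that fit, as did TNFSF13B. BIRC3 held 78 to 137 counts per library, and the effect of depth on its call was not tested. Of the 414 alternative values for the other named genes, 384 kept direction and side, 18 lost the call, 4 gained it and 8 changed sign.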
